A study of Mus musculus with 4 samples.

Results

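The brakes of the cell cycle and the target genes of p53 were followed in mouse embryonic stem cells that differentiate as embryoid bodies. The genes are 10 listed by symbol: the cyclin-dependent kinase (CDK) inhibitors Cdkn1a, Cdkn1b, Cdkn2a, Cdkn2b and Cdkn2c, and the p53-responsive genes Mdm2, Ccng1, Bax, Gadd45a and Btg2. Of these, 9 were on spots with a gene name, out of 14386 named genes in all, and Bax, a pore-forming effector of apoptosis, was not on a named spot. The cells are of the CGR8 line, undifferentiated at day 0 and grown in hanging drops for day 3 and day 10. RNA of each later day was hybridised together with day 0 RNA on spotted arrays with 2 channels. Each of the later days has 2 arrays, 4 in all, and per the labels the second is a technical repeat of the first. No mutation, treatment or age beyond the day is given in the labels, and the cells are 1 line.

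CDK inhibitors hold cells before DNA replication by binding the kinases that drive the cycle. The Cip/Kip proteins p21 (Cdkn1a) and p27 (Cdkn1b) bind complexes of cyclins with CDKs, whereas the INK4 proteins p16 (Cdkn2a), p15 (Cdkn2b) and p18 (Cdkn2c) bind Cdk4 and Cdk6. The transcription factor p53 raises Cdkn1a and other genes after DNA damage, among them Mdm2, which encodes the ubiquitin ligase that degrades p53. Mouse embryonic stem cells are known for a short G1 phase with little CDK inhibitor, which lengthens as they differentiate.

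Letters of the kind that p53 is known to bind lie before a start site of Cdkn1a and that of Ccng1. RefSeq start-site windows of GRCm38.p6, each 250 bases before to 50 after a start, were searched for the p53 consensus without spacer, on both strands, with at most 2 mismatches outside its fixed C and G letters. Of 13 windows of the 10 genes, 2 held it, against 0.326% of the 32851 windows of all genes. They are shown because both genes are on the arrays and are listed as p53 targets. The 20 letters of the match are in capitals, and each sequence runs 5′ to 3′ on the strand of its gene.
Cdkn1a, chr17:29090888-29090978, plus strand: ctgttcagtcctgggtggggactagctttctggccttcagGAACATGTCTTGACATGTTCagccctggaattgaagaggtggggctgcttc
Ccng1, chr11:40755422-40755521, minus strand: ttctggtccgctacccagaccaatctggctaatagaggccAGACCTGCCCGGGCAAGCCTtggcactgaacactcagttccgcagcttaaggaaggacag

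Each match differs from the consensus at 1 position. The match of Cdkn1a lies 51 to 32 bases before the upstream of its 2 start sites. In the window of its other start site the closest match had 7 mismatches. The match of Ccng1 lies 195 to 176 bases before its start. None of the 13 held TATAAA, which 13.6% of all windows hold. GGGCGG was in 10 of 13 (35.7% of all) and CCAAT in 7 of 13 (37.4% of all). CpG dinucleotides numbered 2 to 45 per window, with a median of 19 against 7 over all windows, and the upstream Cdkn1a window was the one with 2. Both strands were searched for each motif. A match is a description of letters, not of binding.

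Each value below is a log2 ratio of the channels, centred on the median of its array, so that 1 stands for 2-fold. The sources used here give neither the dyes nor the channel in the numerator. The sign is therefore the deposited one, and positive or negative does not say which day was higher. Each pair of arrays counts as 1 replicate, so errors are technical, no test was run, and the number of arrays limits the precision. The arrays carried between 37471 and 41386 values on 46128 spots. Each measured gene of the list has 2 spots, next to each other on the table, called A and B here. Over all genes with 2 such spots, the spots of a pair correlated at r between 0.226 and 0.355 within an array, a description across 9213 to 11206 genes, and lay 1 or more apart for 18.9% to 30.1% of genes. Of the cell type markers, the stem cell genes Pou5f1, Nanog and Zfp42 were on the negative side at day 3, at -0.89 ± 0.15, -0.48 ± 0.37 and -0.78 ± 0.01 (mean ± SD of 2 technical arrays, as below), and the 11 measured genes of that list had a median of -0.41. At day 10 that list was mixed: its 10 measured genes ranged from Pou5f1 at -1.39 ± 0.99 to Fgf4 at 1.25 ± 0.36, with medians of 0.17 and -0.51 on the separate arrays. Visceral endoderm genes ranged at day 10 from Afp at -0.76 ± 0.84 to Gata4 at 0.87 ± 1.21 with a median of 0.37 over 7, and heart muscle genes, among them Actc1 at -0.37 ± 0.01, from -1.01 to 0.44 with a median of -0.21 over 7. Fgf4 and Gata4 are named as the ends of these ranges, after their values were seen. Markers at or beyond 2-fold on both arrays were Dppa5a of stem cells (-2.71 ± 0.04) and Mesp1 of early mesoderm (1.97 ± 0.10) at day 3, and the erythroid genes Alas2 (1.23 ± 0.23) and Epor (1.29 ± 0.16) at day 10. The medians of the 7 lists for other cell types lay between -0.17 and 0.56 at day 3 and between -0.31 and 1.12 at day 10, and their part in the values of the listed genes was not tested.

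None of the listed genes was at or beyond 2-fold on both arrays of a day. At day 3 that is 0 of 7 genes with a value on both arrays, where 2.8% of the 13707 genes measured were. At day 10 it is 0 of 8, where 3.54% of 13199 were, and between the days 0 of 7, where 3.54% of 12654 were. The median of the listed genes was -0.02 at day 3 (all genes 0.01) and 0.37 at day 10 (all genes -0.01). On the separate arrays those medians were -0.06 and -0.09 at day 3, and 0.30 and 0.10 at day 10. In RNA of whole embryoid bodies, a change in the share of a cell type and a change in RNA per cell cannot be told apart.

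**Figure D1:**
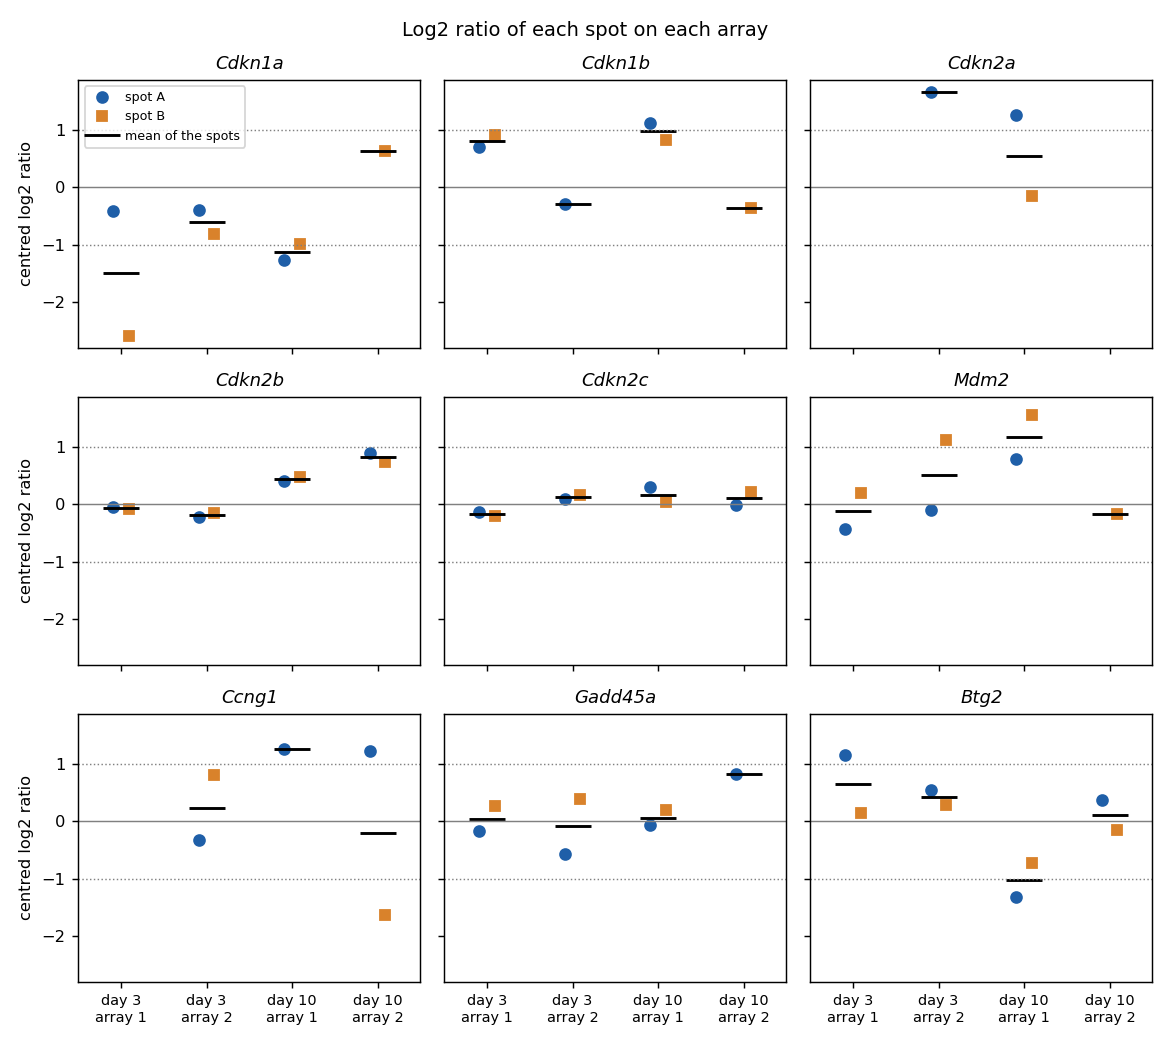
Centred log2 ratio (vertical axis) of spot A (circles) and spot B (squares) of the 9 listed genes on each of the 4 arrays (horizontal axis), with the mean of the spots as a bar and the 2-fold limits dotted. A missing symbol is a spot with no value; Cdkn2b and Cdkn2c have their spots close together on every array, while those of Ccng1 on day 10 array 2 lie at 1.22 and -1.62.

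The technical arrays of the Cip/Kip inhibitor genes differed from each other at both days. Cdkn1a stood at -1.496 and -0.60 at day 3, and at -1.12 and 0.62 at day 10. Both day 3 arrays were negative, with a mean of -1.05 ± 0.63, but the day 10 arrays were on opposite sides (-0.25 ± 1.24). The day 3 mean lay at percentile 2.75 of all genes, but it was -0.40 when spot A alone was taken, so spot B of array 1 decided its size.

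That spot read -2.57, while spot A of the same array read -0.42. On array 2 the spots read -0.39 and -0.81. Many deposited ratios are ratios of small whole numbers. The reading of spot A on array 1 is the ratio 11 to 15 before centring, and that of spot B 347 to 2109. These are the smallest whole numbers that give the deposited value, and so lower bounds on the channel values if those were whole. At day 10, spot A read -1.27 on array 1 and had no value on array 2, where the gene value of 0.62 is spot B alone, the ratio 537 to 359. The spots of Cdkn1a on day 3 array 1 were 2.16 apart, at percentile 94.1 of all pairs of spots on that array.

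Cdkn1b, whose protein p27 restrains cyclin E and cyclin A complexes, read 0.80 and -0.30 at day 3, then 0.97 and -0.37 at day 10. In both pairs array 1 was positive and array 2 negative, and the days overlapped. The means were 0.25 ± 0.78 and 0.30 ± 0.94. Where both spots had a value they lay close, at 0.69 and 0.91 on day 3 array 1 and at 1.11 and 0.82 on day 10 array 1. The differences between arrays, 1.10 and 1.33, were therefore several times those between neighbouring spots, 0.22 and 0.29. On both second arrays 1 of the 2 spots had no value.

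Among the INK4 genes, Cdkn2b and Cdkn2c gave the steadiest readings of the list. Cdkn2b, which encodes p15 and is known as a gene that TGF-beta induces, read -0.06 and -0.18 at day 3, then 0.43 and 0.81 at day 10. Both day 10 arrays lay above both day 3 arrays. The means were -0.12 ± 0.09 at day 3 and 0.62 ± 0.27 at day 10, a deposited ratio of 1.54-fold.

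By spot, the readings of Cdkn2b at day 3 were -0.04 and -0.22 for spot A and -0.09 and -0.15 for spot B. At day 10 they were 0.39 and 0.89 for spot A, and 0.46 and 0.73 for spot B. All 4 day 10 readings were positive and all 4 day 3 readings negative. Day 10 minus day 3, each taken against day 0 RNA, was 0.74 ± 0.28, with 4 differences between arrays from 0.49 to 0.99, all under 2-fold. This mean lay at percentile 86.4 of all genes, so many genes differed as far or farther. The labels do not state that the same day 0 RNA was used on all arrays.

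Cdkn2c, encoding p18, read -0.17 and 0.13 at day 3 and 0.17 and 0.10 at day 10. Its means were -0.02 ± 0.21 and 0.13 ± 0.05, and the day 3 and day 10 arrays overlapped. Its 8 spot readings all lay between -0.20 and 0.30, a narrower band than that of Cdkn2b or Btg2, the other genes with 8 readings. Cdkn2a, which encodes p16 and, from another reading frame, the Mdm2 inhibitor p19Arf, had a value on 1 array of each day. It read 1.65 on day 3 array 2, from spot A alone, the ratio 2712 to 881. On day 10 array 1 its spots read 1.25 and -0.16, on opposite sides of 0. It enters no comparison, since no day has both arrays, and which of its transcripts the spots read was not tested.

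**Figure D2:**
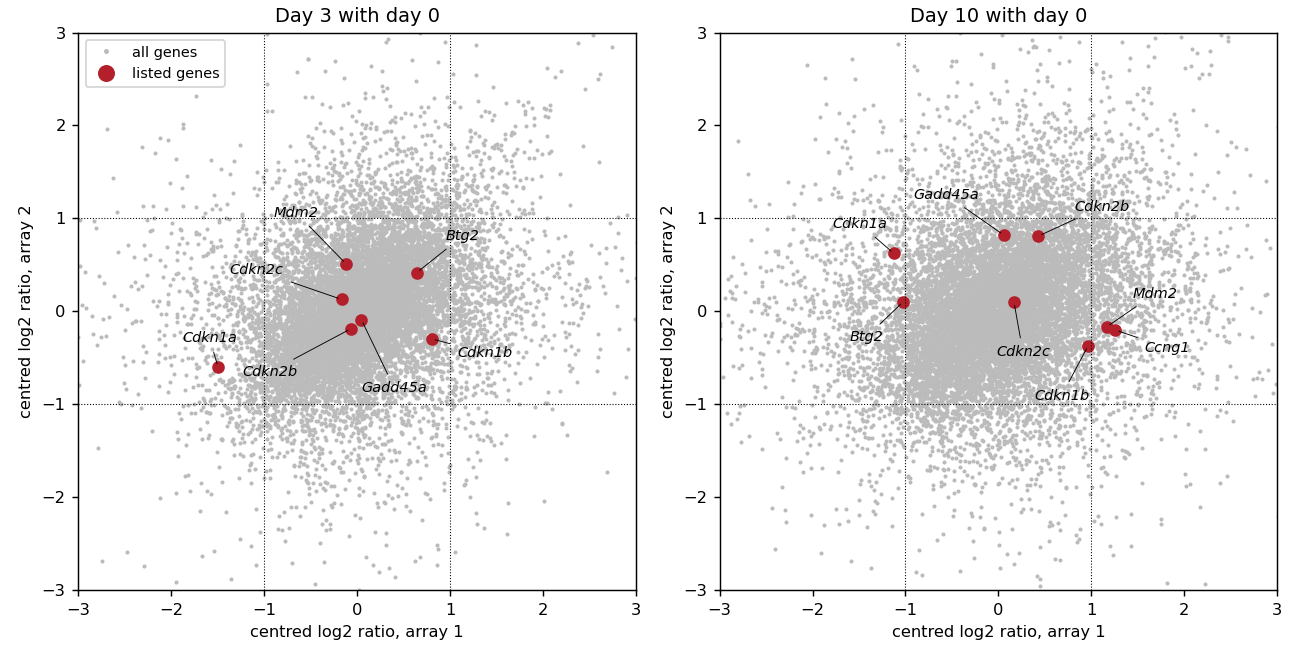
Gene means on array 1 (horizontal axis) and array 2 (vertical axis) of the day 3 pair and the day 10 pair, in centred log2 ratios, with all genes in grey, the listed genes in red and the 2-fold limits dotted. Genes beyond 3 are not drawn; none of the listed genes lies in an outer corner, and at day 10 Cdkn1a, Mdm2, Ccng1, Cdkn1b and Btg2 have opposite signs on the arrays.

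Mdm2 and Ccng1, the feedback genes of p53, both read high on day 10 array 1, where 20.4% of all genes were beyond 2-fold on either side. Of the other listed genes on that array, Cdkn1b read 0.97, Cdkn1a -1.12 and Btg2 -1.02. Mdm2 read -0.12 and 0.51 at day 3, and 1.17 and -0.17 at day 10. Signs differed within both pairs, and the means of 0.20 ± 0.44 and 0.50 ± 0.94 were smaller than their errors. Its highest spot readings, 1.55 on day 10 array 1 and 1.12 on day 3 array 2, were the ratios 107 to 37 and 49 to 23, both of spot B.

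Ccng1 encodes cyclin G1, which recruits a phosphatase to Mdm2. It had no value on day 3 array 1, 0.23 on day 3 array 2, and 1.26 and -0.20 on the day 10 arrays. The day 10 mean was 0.53 ± 1.03, with the arrays on opposite sides. Spot A alone read 1.26 and 1.22 on the day 10 arrays, beyond 2-fold on both. Spot B had no value on array 1 and read -1.62 on array 2, the ratio 17 to 54, which turned the mean of that array negative. Counted by single spots, spot A of Ccng1 was the 1 of 11 listed spots beyond 2-fold on both day 10 arrays, where 4.86% of all spots were.

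Gadd45a, whose protein responds to DNA damage and takes part in growth arrest, read 0.05 and -0.09 at day 3 and 0.06 and 0.82 at day 10. The means were -0.02 ± 0.10 and 0.44 ± 0.54. The small day 3 values are averages of spots that lay on opposite sides, -0.18 and 0.27 on array 1 and -0.56 and 0.38 on array 2. The day 10 arrays lay above the day 3 arrays, the nearest by 0.01, and the value of 0.82 is spot A alone, the ratio 295 to 172. On day 10 array 1 the spots read -0.07 and 0.19. Spot A kept the order of the days, but this reading of spot B lay below both of its day 3 readings.

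Btg2, an antiproliferative gene that p53 and growth signals induce, read 0.64 and 0.42 at day 3, and -1.02 and 0.11 at day 10. Both day 3 arrays were positive, with a mean of 0.53 ± 0.16. That SD does not cover the spread of the spots, which read 1.14 and 0.14 on array 1 and 0.55 and 0.28 on array 2. With spot B alone the day 3 mean was 0.21. The day 10 mean was -0.46 ± 0.80 and its arrays differed in sign. Both day 10 arrays lay below both day 3 arrays, and day 10 minus day 3 was -0.99 ± 0.81, with differences from -1.66 to -0.31. That mean was the farthest from 0 of the listed genes between the days, at percentile 8.25 of all genes.

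In all, Cdkn2b and Gadd45a had day 10 arrays wholly above, and Btg2 wholly below, the day 3 arrays, which makes 3 of 7 genes with all differences on one side. Over all genes 43.3% were so, hence the listed genes stood near the background. For Gadd45a the order held for the mean of the spots and for spot A, but not for spot B. Within a day, both arrays were on the same side for 3 of 7 genes at day 3, where 64.7% of all genes were, and for 3 of 8 at day 10, where 60.8% were. At day 3 these were Cdkn1a, Cdkn2b and Btg2, and at day 10 Cdkn2b, Cdkn2c and Gadd45a, so that Cdkn2b was among them at both days.

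The 9 genes have 72 possible readings, and 13 of them (18.1%) had no value, against 12.9% over all named spots. Day 10 array 2 lacked 6 and day 10 array 1 lacked 1. Of 26 pairs of neighbouring spots with both values, 6 (23.1%) were 1 or more apart, against 18.9% to 30.1% of all genes by array. In 10 of the 26 the signs were opposite, and the share of such pairs over all genes was not counted. Of the 59 readings with a value, 41 (69.5%) were ratios of whole numbers up to 10000, against 59.3% of all readings. A brightness was taken from these numbers as the log2 of their geometric mean, a lower bound, with the other readings counted as bright.

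By that measure Cdkn2b stood at percentile 89.6 of genes at day 3 and 85.1 at day 10, and Cdkn2c at 74.6 and 80.8. Cdkn1a stood at 13.5 and 11.9, Mdm2 at 14.7 and 7.92, and Ccng1 at 10.8 at day 10. The technical arrays of Cdkn2b differed by 0.12 and 0.38, and those of Cdkn1a by 0.90 and 1.75. One reading of Cdkn2b, spot A on day 10 array 2, was matched by the ratio 1447 to 802 and so counted as dim, although its neighbour counted as bright at percentile 93.1. Of the cell type markers beyond 2-fold, Dppa5a stood at percentile 34.3 and Mesp1 at 32.6 at day 3. Alas2 stood at 6.56 and Epor at 12.8 at day 10.

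**Figure D3:**
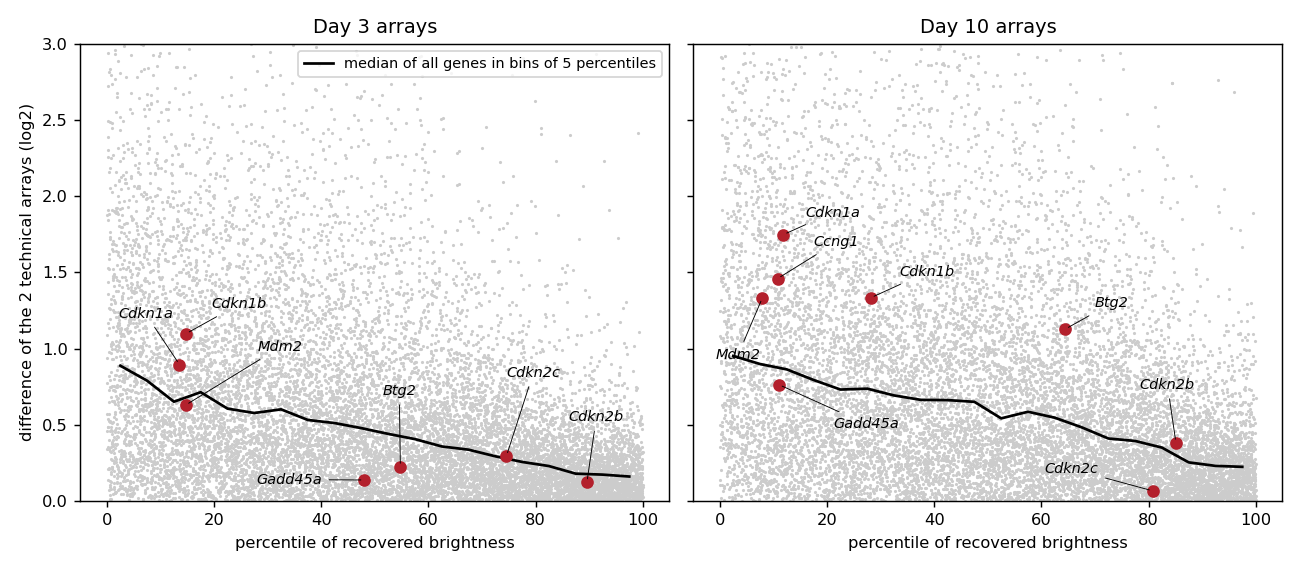
Absolute difference between the 2 technical arrays (vertical axis, log2) against the percentile of recovered brightness (horizontal axis) for all genes (grey, median as a line) and the listed genes (red), by day. Differences beyond 3 are not drawn. The dim genes Cdkn1a, Cdkn1b, Mdm2 and Ccng1 have differences of 0.63 to 1.75, while Cdkn2b and Cdkn2c stay at or below 0.38. Btg2, at brightness percentile 64.5 at day 10, has a difference of 1.13 there.

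The wider pathway was read from 8 lists with 144 genes besides the 10. At day 3, 2 of 120 measured genes were beyond 2-fold, both positive (1.67%), and at day 10, 4 positive and 2 negative of 112 (5.36%), against 2.8% and 3.54% of all genes. The medians were -0.05 and 0.07. The genes so called at day 3 were Rb1, the retinoblastoma protein that CDK inhibitors keep active, at 1.65 ± 0.32, and Trp73, a relative of p53, at 1.27 ± 0.14. Both were dim, at brightness percentiles 2.10 and 5.24.

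At day 10 the positive ones were Cdk1, the kinase of mitosis, with 1.77 and 1.23 on its arrays, Ccnh, a cyclin of the CDK-activating kinase, with 1.41 and 2.59, E2f5 at 1.54 ± 0.70, and Skp2 at 1.17 ± 0.21. Skp2 encodes the ubiquitin ligase subunit that marks p27 for degradation, and it was dim, at brightness percentile 2.45. E2f5 was dim as well, at 9.76, and Cdk1 stood at 31.9 and Ccnh at 67.7. The negative ones were Cdk9, a kinase of transcription elongation, at -1.09 ± 0.03, and Tap1, a peptide transporter gene that p53 can induce, at -1.75 ± 0.57.

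Of the other CDK inhibitor genes, Cdkn1c (p57) read 1.36 and 0.61 at day 3 and 0.51 and 0.93 at day 10. Cdkn2d (p19Ink4d) read 0.45 and 0.54 at day 3 and 1.19 and 0.79 at day 10. Both were positive on all 4 arrays without passing the limit on both arrays of a day, and both were dim, at brightness percentiles 4.32 to 17.8. Cdkn3, which encodes a phosphatase of CDKs, was negative on all 4 arrays, at -0.07 and -0.30 at day 3 and -1.31 and -0.97 at day 10, and bright, at percentiles 97.0 and 73.4. Its day 10 mean of -1.14 ± 0.24 was the farthest from 0 of these 3 genes, with array 2 just inside the limit, and it is named after its values were seen. The kinases that INK4 proteins bind were brighter than Cdkn1c and Cdkn2d. Cdk4 stood at brightness percentiles 54.0 and 67.7, and Cdk6 at 84.7 and 88.8. Cdk4 was at -0.57 ± 0.25 at day 3 and -0.38 ± 0.39 at day 10, and Cdk6 at 0.27 ± 0.0044 and -0.55 ± 0.18. Ccnd1, their cyclin partner, was at -0.70 ± 0.09 and -0.08 ± 0.25. Cdk2 read 2.05 and -0.31 at day 3 and 0.57 and 0.54 at day 10, and Ccne1, its cyclin, 0.54 and 0.43 at day 3 and 2.80 and -0.65 at day 10.

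Of 19 measured p53 regulators, 1 was called at day 3 (Trp73) and none at day 10, with medians of -0.06 and 0.26. Mdm4, the inhibitory partner of Mdm2, was at 0.15 ± 0.13 and -0.17 ± 0.33, and Trp53 was not on a named spot of its own. Of 33 other p53 targets, none was called at day 3 and 1 at day 10 (Tap1), with medians of 0.05 and 0.00. The Gadd45, Btg and Tob relatives had medians of -0.33 over 7 and -0.27 over 6 genes and none was called. Among them Btg1 was at -0.33 ± 0.17 and -0.11 ± 0.29, Gadd45g at -0.52 ± 0.40 and 0.25 ± 0.71, and Gadd45b at 0.71 ± 0.67 at day 3. None of 18 and 14 Bcl2 family genes was called at either day, with medians of 0.02 and -0.23. Cyclins and CDKs had medians of -0.09 and -0.03, pocket proteins and E2F -0.02 and 0.47, and genes of inhibitor turnover and repression -0.06 and 0.33.

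**Figure D4:**
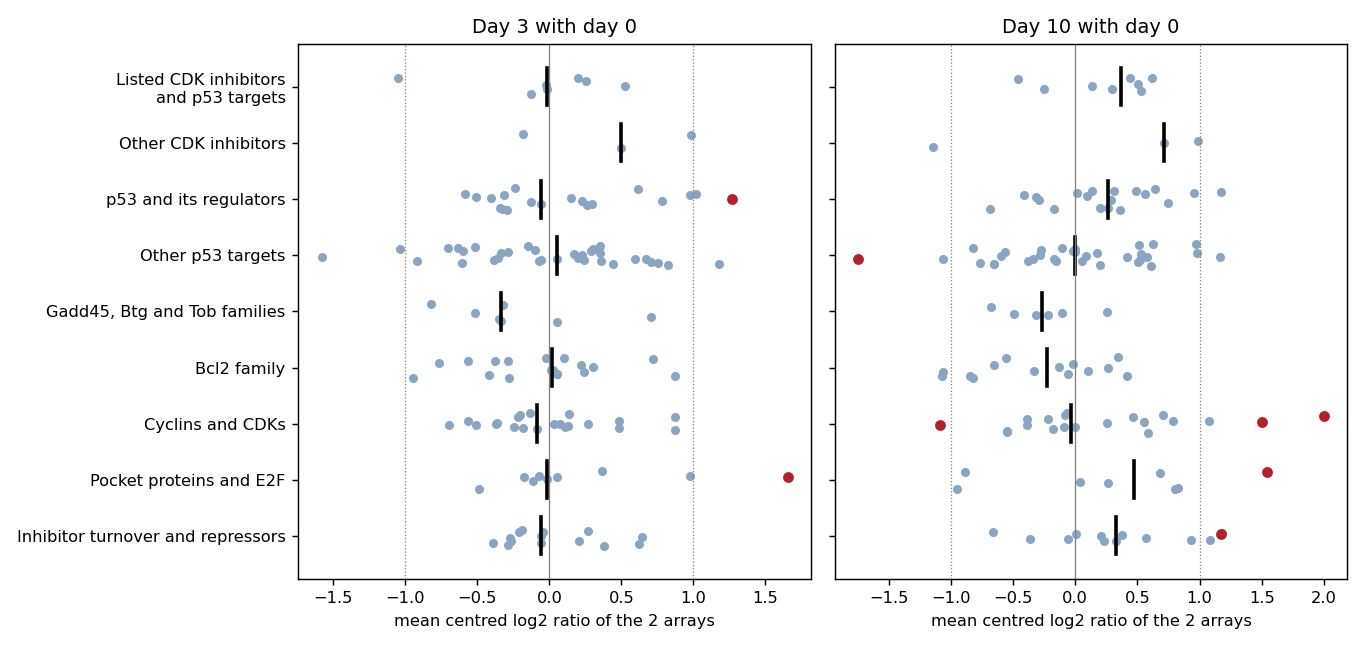
Mean centred log2 ratio of the 2 arrays (horizontal axis) for each measured gene of the listed genes and of 8 related lists (rows), at day 3 and day 10, with list medians as bars, the 2-fold limits dotted and genes beyond 2-fold on both arrays in red. The listed genes have no red point; the related lists have 2 at day 3 and 6 at day 10.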

How the data were processed

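The authors deposited 1 table with 1 value per spot and array, taken as the log2 ratio of the channels because many values are log2 ratios of whole numbers. The sources used here do not name the scanner, dyes, numerator, background treatment or the reason why values are missing. Spots were named through the platform's probe table: 32544 had 1 symbol, 588 several and 12996 no row. Symbols were looked up by Entrez ID in RefSeq GRCm38.p6, which changed 0. The 480 spots of 5 control sequences, each spotted 96 times, were left out. The median over an array's remaining spots was subtracted from its values, and spots were then averaged by gene. Genes were called where both arrays (all 4 differences between days) were at or beyond 1 on the same side. For day 10 minus day 3 the SD combines both pairs. Whole numbers were recovered within 6e-10 (log2). Of these steps, the recovery of whole numbers and the calling rule were tested on simulated data. The simulated shifts were larger than the mean of any listed gene, and the other steps were not simulated.

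All listed genes are named, with the called genes of the wider lists and relatives fixed by name. The genes and lists were chosen with earlier results of these data known. Calculations used Python 3.11.15, numpy 2.4.6, pandas 2.3.3 and matplotlib 3.10.9. The alternatives were no centring, a common spread, other limits, other ways to combine spots, genes with all 4 arrays, the brighter 50% of genes, removal of the brightness trend in 50 bins, and each array left out.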

Additional observations from a re-analysis of the deposited data

Results flagged for a closer look

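Cdkn2b had both day 3 arrays on the negative side and both day 10 arrays on the positive side, with day 10 minus day 3 at 0.74. The difference was not tested. It assumes the same channel in the numerator on the arrays of both days, which the labels do not state. Genes with the day 3 arrays on one side and the day 10 arrays on the other, in either direction, were also counted. Over all genes with values on the 4 arrays, 1766 of 12654 were so. Of the 7 listed genes among them, Cdkn2b was the 1 that was. A share of 1 in 7 is near that over all genes, so by this count the listed genes stood near the background.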

How the results depend on the processing

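No listed gene was beyond 2-fold at any day under no centring, a common spread or removal of the brightness trend. The same held under the median of the spots, genes with values on all 4 arrays, the brighter 50% of genes and the 4-fold limit. These last settings could not raise the count. The median of 2 spots equals their mean, and the others only drop genes or tighten the limit. At day 3 the count was 1 of 7 with the 1.5-fold limit (11.7% of all genes) and 1 of 7 with the limit on the mean alone (7.97%), Cdkn1a in both, and 1 with either array left out: Cdkn1a of 7 genes on array 1 alone (14.4%) and Cdkn2a of 9 on array 2 alone (12.8%). At day 10 it was 1 of 8 with the spot of smallest array difference (5.9%) and 1 of 11 single spots (4.86%), Ccng1 in both, and 0 to 4 with an array left out: array 1 alone had Cdkn1a, Mdm2, Ccng1 and Btg2 of 9 genes (20.4%), and array 2 alone had 0 of 8 (16.2%). Between the days it was 0 to 1 with an array left out, and the 1 of 7 was not the same gene. Without day 10 array 1 it was Cdkn1a, at 1.67 (11.9% of all genes), and without day 10 array 2 it was Btg2, at -1.55 (15.4%). The cause was not tested. The day 3 median was -0.049 with no centring, 0.045 with the brightness trend removed and -0.064 to 0.13 with an array left out. The day 10 median was 0.23 over single spots, 0.13 over the 3 listed genes in the brighter 50%, and 0.10 to 0.43 with an array left out. The median difference between the days was 0.14 with the spot of smallest array difference and 0.12 to 0.39 with an array left out. Of 198 values of single genes recomputed, 19 took the other sign, none of them of Cdkn2b. The 198 include values that repeat the main ones by construction, from the median of the spots and the reduced sets of genes. The number of arrays and the dim signal limit these values. No analysis paired by replicate was possible, because the labels give no replicate numbers. The arrays of a pair are technical repeats and count as 1 replicate.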
